A study of Mus musculus with 12 samples.

Results

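The alpha globin genes Hba-a1 and Hba-a2 and the beta globin genes Hbb-bs and Hbb-bt were followed in mouse liver. These 4 genes were taken by their symbols from the deposited expression table, which lists 3799 genes that the authors had selected from their RNA-seq, and all 4 were among the 3317 genes that averaged at least 1 FPKM and were tested. FPKM counts fragments per kilobase of transcript and is scaled to the size of the library. The name of the table marks the 3799 genes as differentially expressed, by a rule that is not given in the sources used here. Presence in the table is itself a result of that selection. The share of genes called in the table is therefore not the share in the transcriptome. Genes absent from it were not analysed here.

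The libraries came from livers of male C57BL/6J mice aged 8 weeks at the start of treatment, with 3 libraries in each of 4 groups. The Saline group, named vehicle in the sample labels, received saline in place of doxorubicin. The DOX, DOX + K35 and DOX + K27 groups all received 10 mg/kg doxorubicin, a DNA-damaging chemotherapy drug, into the peritoneum on day 0 and day 7. Dosing of vehicle or of 50 mg/kg K35 or its analog K27 into the stomach began on day 2 and was repeated every second day until the livers were collected on day 20. K35 and K27 were studied as compounds that act on aggregates of the glycolytic enzyme PKM2, and the comparisons ask how liver RNA differs after doxorubicin and after each compound given on top of it.

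Hemoglobin, the oxygen carrier of red blood cells, is built from a pair of alpha chains and a pair of beta chains, each holding a heme group with an iron atom. Globin mRNA is made in red cell precursors and is still present in reticulocytes, the youngest red cells in blood. The liver makes red cells before birth, and in the adult it holds blood in its vessels, clears old red cells through its resident macrophages (Kupffer cells) and stores the iron. Fewer globin-bearing cells in the tissue and less globin mRNA per cell cannot be told apart in bulk RNA.

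The genes lie in 2 clusters. In GENCODE M21 on GRCm38, Hba-a1 (ENSMUSG00000069919) is at chr11:32283511-32284465 and Hba-a2 (ENSMUSG00000069917) at chr11:32296489-32297298, both on the plus strand with 12978 bases between their starts. Hbb-bs (ENSMUSG00000052305) is at chr7:103826534-103828096 and Hbb-bt (ENSMUSG00000073940) at chr7:103812524-103813996, both on the minus strand with 14100 bases between their starts. Each main transcript has 3 exons. None of the 4 genes overlaps another annotated gene.

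Within each cluster the copies are almost the same, which limits how far their values can be read as separate. The coding sequences of Hba-a1 and Hba-a2 have 426 bases and differ at 1 of them, C381T, and those of Hbb-bs and Hbb-bt have 441 bases and differ at 1, C417T (positions counted from 1 at the start codon, the base of the gene named first given first). Both differences are in exon 3. The stretches around them are shown because these are the only coding bases that separate the copies, with the differing base in capitals.
Hba-a1: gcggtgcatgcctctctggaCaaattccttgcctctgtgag
Hba-a2: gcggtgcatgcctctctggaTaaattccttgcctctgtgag
Hbb-bs: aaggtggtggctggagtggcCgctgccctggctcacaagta
Hbb-bt: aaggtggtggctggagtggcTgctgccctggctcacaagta

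Of the stretches of 100 bases in the Hba-a1 transcript, 56.5% also occurred in Hba-a2, and 74.5% of those in Hba-a2 also occurred in Hba-a1. For Hbb-bs and Hbb-bt the shares were 62.6% and 54.8%. None was shared between either alpha and either beta gene. How reads common to both copies were assigned is not given in the sources used here, so the split between copies is uncertain, while the alpha and the beta sums do not share reads of this length.

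The 4 genes moved together between libraries, as their values by library show, and the part of promoter sequence in this was not tested. The bases just before their starts are shown, with the letters of the motifs searched in capitals. All are on GRCm38.p6 and end at the base before the RefSeq start. Hba-a2 is chr11:32296342-32296491 on the plus strand, Hbb-bs chr7:103827929-103828078 and Hbb-bt chr7:103813924-103814073, both on the minus strand. The RefSeq promoter window of Hba-a1 held the same 297 bases as that of Hba-a2 with a shift of 3 bases and no mismatch, so it is not repeated.
Hba-a2: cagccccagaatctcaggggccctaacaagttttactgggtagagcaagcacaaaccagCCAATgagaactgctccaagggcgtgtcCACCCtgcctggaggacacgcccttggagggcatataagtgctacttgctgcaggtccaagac
Hbb-bs: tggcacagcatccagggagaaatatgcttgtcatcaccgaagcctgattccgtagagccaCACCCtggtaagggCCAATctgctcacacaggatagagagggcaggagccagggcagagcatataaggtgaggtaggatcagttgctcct
Hbb-bt: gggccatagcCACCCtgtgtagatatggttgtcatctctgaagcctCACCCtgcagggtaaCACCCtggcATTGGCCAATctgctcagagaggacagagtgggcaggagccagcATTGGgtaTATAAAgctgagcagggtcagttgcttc

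The motifs were searched on both strands. CACCC, the letters that the erythroid factor KLF1 reads in the beta globin promoter, lay in all 4 promoter windows of RefSeq, and so it did in 57.5% of the 32851 promoter windows of all genes. CCAAT was also in all 4, against 37.4% of all windows, and GATAA, the core letters read by GATA factors, was in all 4 against 25.4%. TATAAA was in Hbb-bt alone of the 4, against 13.6%, and CATAAA in none of the 4, against 11.9%. In Hbb-bt, a CCAAT on the other strand ends where a CCAAT on the printed strand begins. GENCODE places the starts of Hba-a1, Hba-a2, Hbb-bs and Hbb-bt 161, 3, 168 and 73 bases further upstream, so parts of these windows lie inside its longer transcripts.

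The deposited values are not counts. Depth per library is therefore unknown, and precision rests on the replicates alone. Libraries are named by the replicate number of their label where the column code and the label match. The codes B3, B4 and C4 carry no such match and were used by group only, B3 and B4 in DOX and C4 in DOX + K35. The 13 mitochondrially encoded genes took 37.9% to 83.3% of the summed FPKM, with the highest share in library B4. Library C4 stood apart from both other DOX + K35 libraries for the globin genes. There the values were 6.24 (Hba-a1), 12.2 (Hba-a2), 7.30 (Hbb-bs) and 8.77 (Hbb-bt) times below the mean of the other DOX + K35 libraries, and the globin differences from DOX + K35 are therefore also given without it. For genes of the lists read beside globin, the calls in DOX + K35 vs. DOX that changed without C4 are named. C4 was also apart for genes unrelated to blood: Mup14, a major urinary protein made by hepatocytes, was at 1.10 FPKM in C4 and between 103.2 and 355.0 in the other libraries.

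Hbb-bs had the highest mean FPKM of the 4 genes, 235.7, which ranked 86 among the 3799 genes. Hba-a1 followed with 171.0 (rank 117), then Hba-a2 with 121.4 (rank 170) and Hbb-bt with 80.8 (rank 244). FPKM is a level per length, so the alpha and beta sums can be set side by side. The order of single genes also depends on how reads shared by the copies were split, which is not known. The order Hbb-bs, Hba-a1, Hba-a2, Hbb-bt held in 12 of 12 libraries.

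Hba-a1 read 134.9, 107.2 and 132.8 FPKM in Saline replicates 1 to 3. In DOX it read 215.1 in replicate 1, 265.9 in library B3 and 319.4 in library B4. In DOX + K35 it read 97.4 and 163.7 in replicates 1 and 2 and 20.9 in library C4. In DOX + K27 the values of replicates 1 to 3 were 160.9, 137.9 and 295.8. All DOX libraries were above all Saline and all DOX + K35 libraries. DOX + K27 replicate 3 lay among the DOX libraries, and the other DOX + K27 libraries lay just above Saline.

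Hba-a2, the neighbouring alpha gene, read 101.2, 43.9 and 93.2 FPKM in Saline, with the low value in replicate 2. In DOX it read 161.4, 192.5 and 246.3 (replicate 1, B3 and B4). It read 71.9, 128.0 and 8.21 in DOX + K35 (replicates 1 and 2 and C4). The DOX + K27 replicates read 112.3, 73.5 and 224.2. DOX again overlapped neither Saline nor DOX + K35, and the DOX + K27 libraries spread over the ranges of Saline and DOX.

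Hbb-bs, the beta gene with the higher FPKM, read 205.4, 137.7 and 184.7 FPKM in Saline and 324.3, 340.4 and 411.4 in DOX, each group in the same order as above. In DOX + K35 it read 152.5, 231.7 and 26.3, and in DOX + K27 233.0, 180.9 and 400.1. Its libraries fell into the same order of groups as the alpha genes. Hbb-bt, the other beta gene, read 64.1, 41.0 and 66.0 in Saline, 119.7, 109.5 and 157.7 in DOX, 47.0, 72.4 and 6.81 in DOX + K35 and 73.4, 59.8 and 152.2 in DOX + K27. For each beta gene the DOX libraries were above all Saline and DOX + K35 libraries and overlapped DOX + K27.

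**Figure D1:**
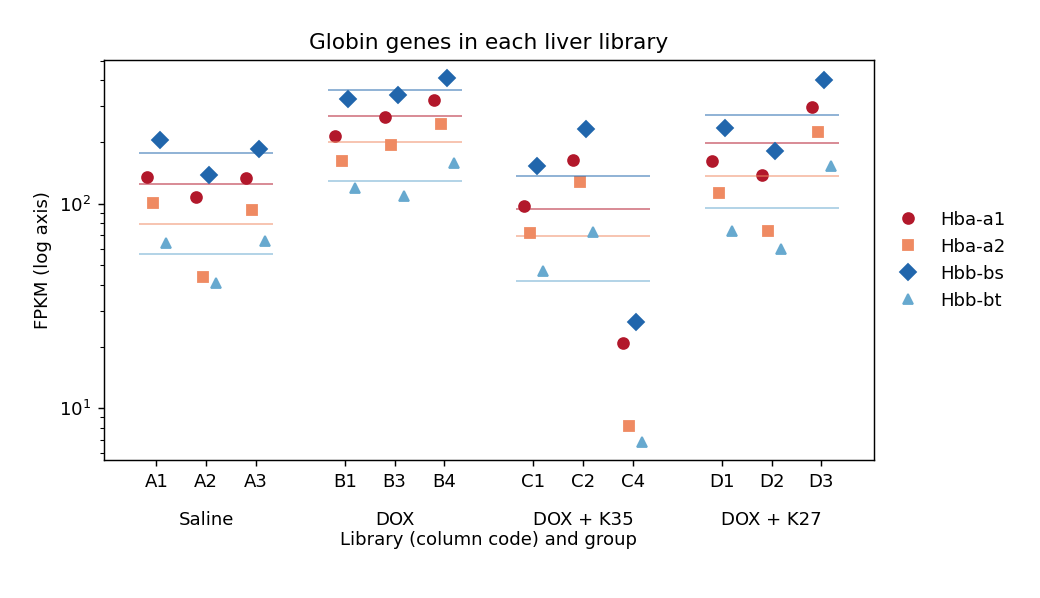
FPKM of the 4 globin genes (log axis) in each of the 12 liver libraries, named by column code under their group (A1 to A3 and D1 to D3 are replicates 1 to 3, B1 is DOX replicate 1, C1 and C2 are DOX + K35 replicates 1 and 2). Points are libraries and lines are group means of 3. The 3 DOX libraries sit above the 3 Saline libraries for every gene, and C4 sits below all other libraries, with 6.81 FPKM of Hbb-bt.

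The mean levels ran in the order DOX, DOX + K27, Saline, DOX + K35 for all 4 genes. For Hbb-bs they were 358.7 ± 46.3, 271.4 ± 114.5, 175.96 ± 34.7 and 136.9 ± 103.6 FPKM (SD, n = 3 each). For Hba-a1 they were 266.8 ± 52.1, 198.2 ± 85.3, 125.0 ± 15.4 and 94.0 ± 71.5 (SD, n = 3 each). None of the neighbouring groups in this order passed the test for any of the 4 genes, as the comparisons that follow show. The last place of DOX + K35 rested on library C4. The mean of its replicates 1 and 2 was 130.6 for Hba-a1, 99.99 for Hba-a2, 192.1 for Hbb-bs and 59.7 for Hbb-bt. Each was above the Saline mean, which was 79.4 for Hba-a2 and 57.0 for Hbb-bt.

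Globin levels were about 2-fold higher in DOX than in Saline, without passing the test. Mean Hbb-bs FPKM was 2.04 times, Hba-a1 2.13 times, Hbb-bt 2.26 times and Hba-a2 2.52 times the Saline mean. On the log2(FPKM + 1) scale, where limma was fitted over all 12 libraries, the differences were 1.08 ± 0.57 for Hba-a1, 1.39 ± 0.74 for Hba-a2, 1.04 ± 0.61 for Hbb-bs and 1.18 ± 0.64 for Hbb-bt (SE). The adjusted p-values (limma, Benjamini-Hochberg over the 3317 genes) were 0.147, 0.148, 0.183 and 0.153. The unadjusted p-values were 0.0798 to 0.109, so 0 of 4 were under 0.05 before adjustment as well. In this comparison 0.181% of all genes tested passed. The DOX libraries were above the Saline libraries without overlap for 4 of 4 globin genes, against 12.3% of all genes that were higher in DOX without overlap. As the 4 genes moved together and the copies share sequence, they are not 4 separate observations.

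The median gene went the other way, with a log2 difference of −0.34, and this median depended on the scaling, running from −0.34 to 0.06 over 5 scalings. Relative to the median gene the globin differences were 1.37 to 1.73 as deposited, and 1.46 to 2.12 over the other 4 scalings. Without library C4, which belongs to neither group but widens the common spread, the adjusted p-values (limma with Benjamini-Hochberg adjustment) were 0.0501 to 0.0514, still above 0.05. The share of mitochondrially encoded genes was also higher in DOX (62.2% to 83.3%) than in Saline (48.2% to 61.9%). With each library rescaled to an equal sum without those genes, the globin differences were 1.31 to 1.66, so they were not smaller.

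DOX + K35 livers had lower levels of all 4 globin genes than DOX livers. Mean FPKM fell from 266.8 to 94.0 for Hba-a1, from 200.1 to 69.4 for Hba-a2, from 358.7 to 136.9 for Hbb-bs and from 128.96 to 42.1 for Hbb-bt, a ratio of 2.62 to 3.07. The log2 differences were −1.90 ± 0.57 for Hba-a1, −2.16 ± 0.74 for Hba-a2, −1.85 ± 0.61 for Hbb-bs and −2.09 ± 0.64 for Hbb-bt (SE). Their adjusted p-values (limma, Benjamini-Hochberg) were 0.0121, 0.0222, 0.0177 and 0.0127, so 4 of 4 passed. In this comparison 56.8% of all genes passed, most of them higher in DOX + K35 (46.0%) and 10.7% lower. The groups did not overlap for 4 of 4 globin genes, against 15.4% of all genes that were lower in DOX + K35 without overlap. Here too the 4 genes are not separate observations.

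Library C4 carried much of the size. Without it the log2 differences were −1.05 ± 0.41 for Hba-a1, −1.03 ± 0.50 for Hba-a2, −0.92 ± 0.41 for Hbb-bs and −1.11 ± 0.43 for Hbb-bt (SE). Hba-a1 and Hbb-bt then passed, with adjusted p-values of 0.0363 and 0.0357, and Hba-a2 and Hbb-bs did not, with 0.0864 and 0.0601 (limma, Benjamini-Hochberg). In that fit 16.8% of all genes were called lower. Without library B4, the DOX library with the highest globin sum and the highest mitochondrial share, 2 of 4 passed, and without both B4 and C4 it was 0 of 4, with log2 differences of −0.82 to −0.96. Without library B3 it was 3 of 4. The share of all genes called lower was 11.8% without B4, 22.3% without B4 and C4 and 5.09% without B3. The direction held in each of these fits and over all 5 scalings, where the differences from the median gene ran from −2.31 to −3.03. The mitochondrial share was lower in DOX + K35 (37.9% to 48.7%) than in DOX, and after rescaling without those genes the log2 differences were −2.16 to −2.47 and 4 of 4 passed. After that rescaling 27.4% of all genes were called lower.

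DOX + K27 livers did not differ detectably from DOX livers in globin. The log2 differences were −0.49 ± 0.57 for Hba-a1, −0.68 ± 0.74 for Hba-a2, −0.47 ± 0.61 for Hbb-bs and −0.54 ± 0.64 for Hbb-bt (SE), with adjusted p-values of 0.578 to 0.634 (limma, Benjamini-Hochberg). None of the 4 passed, and 0.0603% of all genes did. The 95% intervals ran from −1.71 to 0.73 for Hba-a1 and from −2.26 to 0.91 for Hba-a2, so a fall as large as that in DOX + K35 was within the interval for Hba-a2 and outside it for the other 3 genes. That rested on C4: without it the interval for Hba-a1 ran from −1.27 to 0.29, and the smaller fall in DOX + K35 of each of the 4 genes lay within its interval. DOX + K27 replicate 3 had a globin sum of 1072 FPKM, between the DOX libraries, and a mitochondrial share of 68.0%, the highest of its group.

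The compounds K35 and K27 were given at the same dose and times, and K27 is an analog of K35. This was 1 pair of compounds. Hba-a1 was lower with K35 by a log2 difference of −1.41 ± 0.57 (SE; 95% interval −2.63 to −0.19), and Hbb-bt by −1.55 ± 0.64 (SE; −2.91 to −0.19). For Hbb-bs the difference was −1.38 ± 0.61 (SE; −2.67 to −0.08) and for Hba-a2 −1.49 ± 0.74 (SE; −3.07 to 0.10). The unadjusted p-values were 0.0266, 0.0282, 0.0388 and 0.0644 and the adjusted ones 0.147, 0.151, 0.164 and 0.190 (limma, Benjamini-Hochberg), so 0 of 4 passed, against 2.11% of all genes. Without library C4 the differences shrank to between −0.35 and −0.58. Neither a difference between the compounds nor a like response was shown for globin.

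Against Saline, neither treated group with a compound passed for any of the 4 genes. In DOX + K35 vs. Saline the log2 differences were −0.77 to −0.91 with adjusted p-values of 0.455 to 0.570 (limma, Benjamini-Hochberg), and 0.181% of all genes passed. The sign rested on library C4: without it the differences were 0.02 for Hba-a1, 0.36 for Hba-a2, 0.11 for Hbb-bs and 0.06 for Hbb-bt. In DOX + K27 vs. Saline they were 0.56 to 0.71 with adjusted p-values of 0.943 (limma, Benjamini-Hochberg), and 0.121% of all genes passed. Hba-a1 was the only member whose DOX + K27 libraries were all above Saline, 137.9 against 134.9 at the closest, as were 11.0% of all genes. Within the 3 pairs of libraries with the same replicate number, each of the 4 genes was higher in DOX + K27 in 3 of 3. For Hba-a1 this follows from the lack of overlap. The share of all genes higher in 3 of 3 was not counted, and the 4 genes are not separate observations. The pairs rest on the replicate numbers alone, as these livers came from different mice. For the summed FPKM the exact two-sided permutation test within pairs gave p = 0.25, the smallest that 3 pairs allow.

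**Figure D2:**
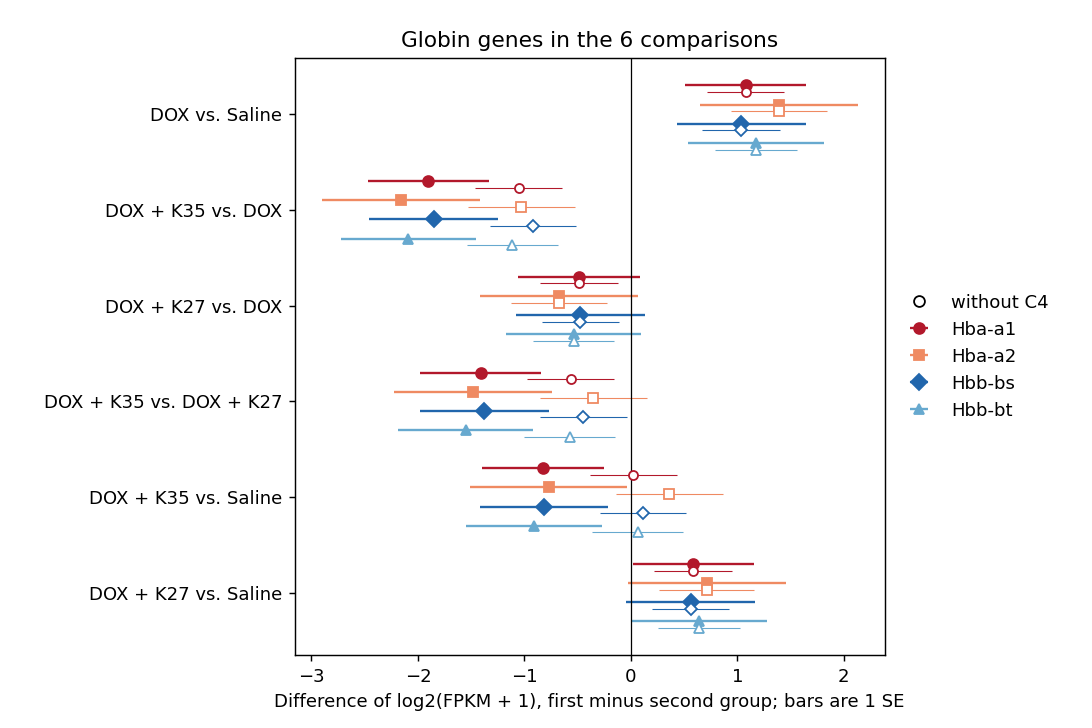
Differences of log2(FPKM + 1) for the 4 globin genes in the 6 comparisons, first minus second group, with bars of 1 SE from limma; filled symbols use all 12 libraries and open symbols leave out library C4. DOX + K35 vs. DOX lies below 0 in both fits, and DOX + K35 vs. Saline moves from −0.82 to 0.02 for Hba-a1 without C4.

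Summed over the 4 genes, globin reached 505.6, 329.8 and 476.7 FPKM in Saline. In DOX the sum was 820.6, 908.3 and 1135 (replicate 1, B3 and B4), 2.18 times the Saline mean. In DOX + K35 it was 368.8 and 595.9 in replicates 1 and 2 and 62.2 in C4, and in DOX + K27 579.6, 452.1 and 1072. DOX was above Saline and DOX + K35 in every library, with p = 0.1 in each case (exact two-sided permutation test, 3 libraries against 3, where 0.1 is the smallest p possible) and 0.3 after Benjamini-Hochberg adjustment over the 6 comparisons. The other 4 comparisons of the sum had exact permutation p-values of 0.3 to 0.7.

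As a share of the summed FPKM of the table, globin differed less. The Saline share was 0.151% ± 0.0406 and the DOX share 0.213% ± 0.0374 (SD, n = 3 each), against 0.148% ± 0.118 with K35 and 0.219% ± 0.0649 with K27 added (SD, n = 3 each). DOX and Saline overlapped on this measure (exact two-sided permutation test, p = 0.2, adjusted 0.6). With the mitochondrially encoded genes left out of the denominator the Saline share was 0.325% ± 0.0790, the DOX share 0.862% ± 0.209, the DOX + K35 share 0.245% ± 0.190 and the DOX + K27 share 0.554% ± 0.297 (SD, n = 3 each), and DOX again overlapped neither Saline nor DOX + K35 (exact permutation p = 0.1 each, adjusted 0.3). So whether the globin share separated DOX from Saline depended on whether those genes were counted. Without C4 the share in DOX + K35 was 0.989 times that in DOX over all genes, and the globin sum was 0.505 times that in DOX.

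**Figure D3:**
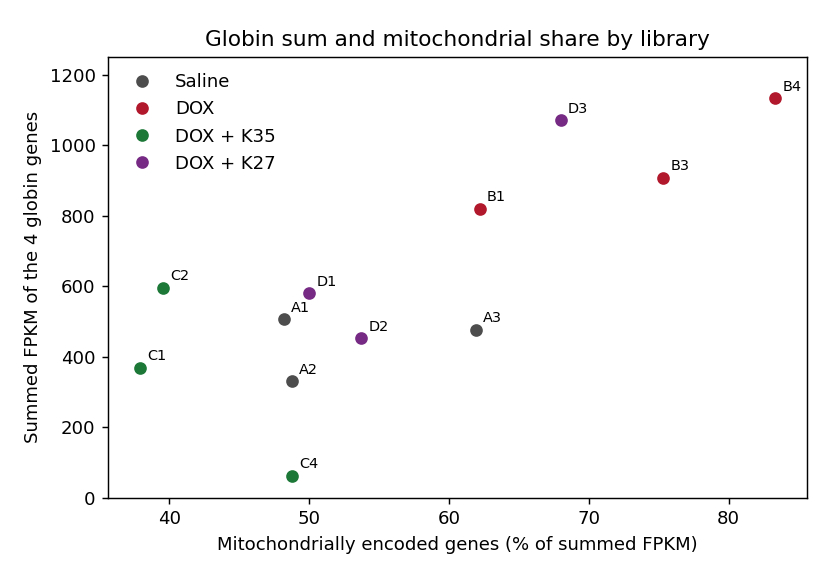
Summed FPKM of the 4 globin genes against the share of summed FPKM from the 13 mitochondrially encoded genes, 1 point per library, coloured by group and marked with the column code. B4 is highest on both axes (1135 FPKM and 83.3%), and C4 has 62.2 FPKM at a mitochondrial share (48.7%) close to that of Saline replicates 1 and 2.

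The alpha and beta chains kept a nearly fixed proportion while their levels moved. The ratio of alpha to beta FPKM (Hba-a1 plus Hba-a2 over Hbb-bs plus Hbb-bt) averaged 0.874 ± 0.0279 for Saline, 0.954 ± 0.0923 for DOX, 0.896 ± 0.0571 for DOX + K35 and 0.904 ± 0.0333 for DOX + K27 (SD, n = 3 each). Over the 12 libraries its highest value was 1.20 times its lowest, while the globin sum varied 18.2-fold (3.44-fold without C4). None of the 6 comparisons separated the groups (exact two-sided permutation p from 0.3 to 0.9).

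The proportion between copies was less even, with the limit that they share reads. Hba-a2 over Hba-a1 was 0.409 in Saline replicate 2, 0.393 in C4 and 0.533 in DOX + K27 replicate 2. In the other 9 libraries it was 0.697 to 0.782. The low ratios thus fell in 3 different groups, and in each of these groups the library with the low ratio also had the lowest globin sum. Hbb-bt over Hbb-bs was lowest in C4, 0.259, and ran from 0.298 to 0.383 elsewhere.

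**Figure D4:**
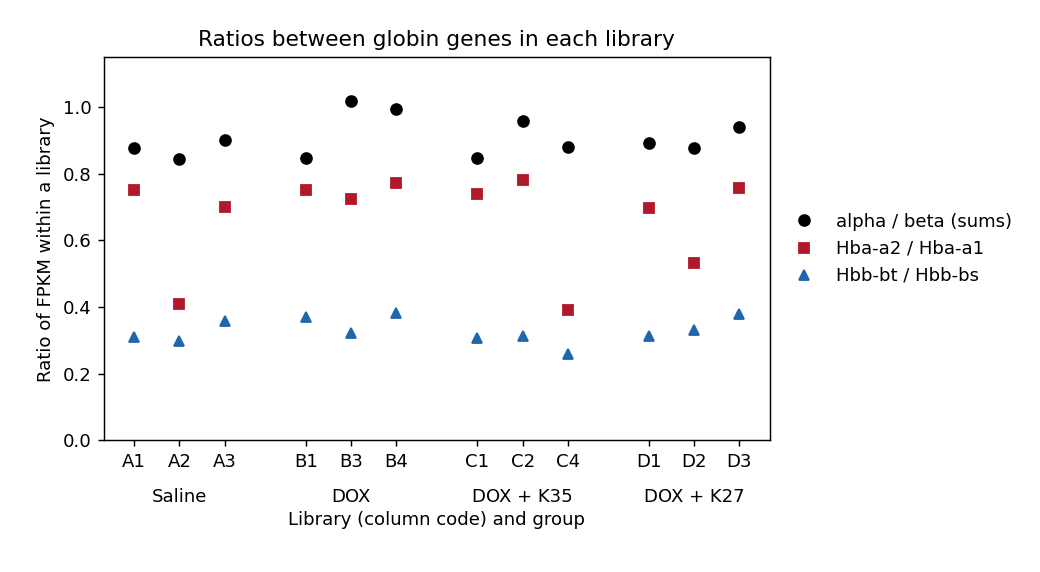
Ratios of FPKM within each of the 12 libraries: the alpha sum over the beta sum, Hba-a2 over Hba-a1 and Hbb-bt over Hbb-bs. The alpha to beta ratio stays between 0.846 and 1.02, while Hba-a2 over Hba-a1 drops to 0.409 in A2 (Saline replicate 2), 0.393 in C4 and 0.533 in D2 (DOX + K27 replicate 2).

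Other genes of the red cell were looked up from lists written from general knowledge. None of the 12 further globin genes on the list (embryonic, theta and related genes) was analysed here. Of 18 genes of the red cell membrane, 2 were in the table: Gypc, a glycophorin that ties the membrane to its skeleton, and Aqp1, a water channel also made by vessel lining cells. Of 25 enzymes and partners of hemoglobin 6 were in the table, and of 12 erythroid transcription factors 2. The most specific red cell genes of these lists, such as the anion exchanger Slc4a1 and the heme enzyme Alas2, were not analysed here.

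As deposited, the genes of these lists that passed in DOX + K35 vs. DOX were higher, where 46.0% of all genes were higher too. The summed level of Gypc and Aqp1 was 9.23 to 22.1 FPKM in Saline, 3.62 to 14.7 in DOX, 13.4 to 15.7 in DOX + K27 and 25.1 to 30.6 in DOX + K35. The highest values were thus in DOX + K35, where mean globin was lowest only with library C4 included. Both passed in DOX + K35 vs. DOX, in the direction opposite to globin: Gypc rose by 1.17 (adjusted p = 0.00516) and Aqp1 by 1.53 (adjusted p = 0.0103; limma, Benjamini-Hochberg). Of the 5 tested enzymes and partners, 3 rose and 0 fell. They were Tfrc, the transferrin receptor, by 0.96, Bnip3l, a receptor that clears mitochondria from maturing red cells, by 1.11, and Xpo7, a nuclear exporter, by 0.75. Slc25a37, the mitochondrial iron importer mitoferrin of red cell precursors, had a difference of −0.52 and did not pass (adjusted p = 0.146; limma, Benjamini-Hochberg), but without C4 it fell by 0.78 and passed (adjusted p = 0.0348; limma, Benjamini-Hochberg). Isg20, an exonuclease, had a difference of −0.46 and did not pass (adjusted p = 0.0698; limma, Benjamini-Hochberg). The transcription factors Lmo2 and Zfpm1 had differences of −0.31 and −0.02 and did not pass. Scaling changed these calls. Slc25a37 and Isg20 passed as lower under 4 of 5 scalings and Lmo2 and Zfpm1 under 3, while Tfrc passed as higher under 2, Bnip3l under 3, Xpo7 under 4 and Gypc and Aqp1 under 5. The background moved as well: over the other 4 scalings 27.4% to 43% of all genes were called lower and 27.6% to 42.6% higher. All of these red cell list genes are also expressed outside red cells. Their summed levels did not include any value at 0, and their part in the globin result was not tested.

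As deposited, Tfrc was the only gene of the red cell lists that passed between the compounds, where 2.11% of all genes did. It read 11.2, 6.13 and 11.1 FPKM with K35 (replicates 1 and 2 and C4) and 2.99, 3.01 and 4.01 with K27. The groups did not overlap, with a log2 difference of 1.24 ± 0.25 (SE; adjusted p = 0.0271, limma with Benjamini-Hochberg adjustment). Without C4 it was 1.11 (adjusted p = 0.0445; limma, Benjamini-Hochberg). Tfrc passed under 5 of 5 scalings, Isg20 under 3 and Gypc and Lmo2 under 2. Over the other 4 scalings 3.59% to 7.93% of all genes passed.

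The genes that make heme, the partner of globin, mostly went the opposite way. Of 13 genes of heme synthesis 5 were in the table and tested. In DOX + K35 vs. DOX 4 rose and 1 fell, against 46.0% of all genes higher and 10.7% lower. Cpox (coproporphyrinogen oxidase) rose by 1.80, Clpx, which activates the first enzyme of the pathway, by 1.44, Slc25a39, a mitochondrial carrier, by 1.36 and Fech, which puts the iron into heme, by 1.20. Ppox (protoporphyrinogen oxidase) fell by 0.71 (adjusted p = 0.0224; limma, Benjamini-Hochberg). It read 13.9, 13.7 and 12.3 FPKM in DOX and 8.13, 6.88 and 8.30 in DOX + K35, without overlap. Ppox overlaps B4galt3 on the other strand. Cpox and Clpx also overlap a gene on the other strand, and Slc25a39 overlaps a gene on its own strand. Whether the counting used strand is not given in the sources used here. The median of the 5 genes was 1.36, against 0.46 for all genes tested. The 6 tested hepatocyte markers also had a median of 1.36, and 4 of them rose and 0 fell. In DOX vs. Saline 0 of 5 passed, with a median of −0.92 against −0.34.

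Of 16 genes that clear hemoglobin and heme, 5 were in the table and 4 tested. In DOX + K35 vs. DOX 3 of the 4 rose, against 46.0% of all genes higher. The median of the 4 was 0.97, against 0.46 for all genes tested. Hmox1 and Hmox2, the oxygenases that break heme open, rose in DOX + K35 vs. DOX by 1.09 and 1.58, and Cd163, the macrophage receptor for hemoglobin bound to haptoglobin, rose by 0.86 (adjusted p = 0.0311). Lrp1, a receptor for hemopexin-bound heme, had a difference of 0.17 and did not pass (adjusted p = 0.627; limma, Benjamini-Hochberg for each), and it was below 0 under 4 of 5 scalings. Without C4 the difference of Cd163 was 0.58 and no longer passed (adjusted p = 0.119; limma, Benjamini-Hochberg). In DOX vs. Saline 0 of 4 passed, with Hmox1 at −1.47 (adjusted p = 0.0612; limma, Benjamini-Hochberg). Hmox2 overlaps a gene on each strand, and Lrp1 overlaps a gene on the other strand.

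Of 23 iron genes 8 were tested. In DOX + K35 vs. DOX 4 of the 8 rose and 1 fell, against 46.0% of all genes higher and 10.7% lower. The median of the 8 was 0.60, against 0.46 for all genes tested. Trf, the iron carrier transferrin, rose by 2.04, Tmprss6, a protease that lowers hepcidin, by 1.38, Aco1, an iron-sensing RNA-binding protein, by 1.37 and Hfe, a sensor of transferrin iron, by 0.74. Hamp2, a hepcidin gene, fell by 1.91 (adjusted p = 0.0102; limma, Benjamini-Hochberg), the same direction as globin. Hamp2 read 381.8, 691.3 and 489.8 FPKM in DOX and 170.7, 228.2 and 61.6 in DOX + K35, the lowest in C4, without overlap. In Saline it read 510.2, 782.65 and 234.6, a range that spanned the DOX values, with a log2 difference of 0.15 in DOX vs. Saline. Without C4 the difference of Hamp2 in DOX + K35 vs. DOX was −1.35 (adjusted p = 0.0392; limma, Benjamini-Hochberg). Hamp2 has a close copy in the genome, so its reads may be shared, and it overlaps a gene on the other strand. Trf overlaps a gene on its own strand.

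Together, 13 of the 17 tested heme and iron genes passed in DOX + K35 vs. DOX, 11 higher and 2 lower, against 46.0% and 10.7% of all genes. Scaling moved this split: with equal sums without the 20 highest genes it was 5 higher and 3 lower, against 27.6% and 43% of all genes. None of the 13 changed sign over the 5 scalings, but Hfe passed under 1 of the 5, Hmox1 and Cd163 under 2 and Fech under 3. Without C4, 10 were higher and 2 lower, with only the call of Cd163 lost. In DOX vs. Saline 0 of 17 passed, but 11 did without Saline replicate 3 and 14 without DOX replicate 1, all lower in DOX. In these fits 31.3% and 41.9% of all genes were called lower in DOX. Without C4, 1 of the 17 passed, Id1, a target of the signal that drives hepcidin, which was lower in DOX by a log2 difference of −1.68 (adjusted p = 0.0088; limma, Benjamini-Hochberg). The first of these comparisons shares its DOX libraries with the second, so opposite signs between them are not separate observations. In DOX + K27 vs. DOX 0 of 17 passed.

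**Figure D5:**
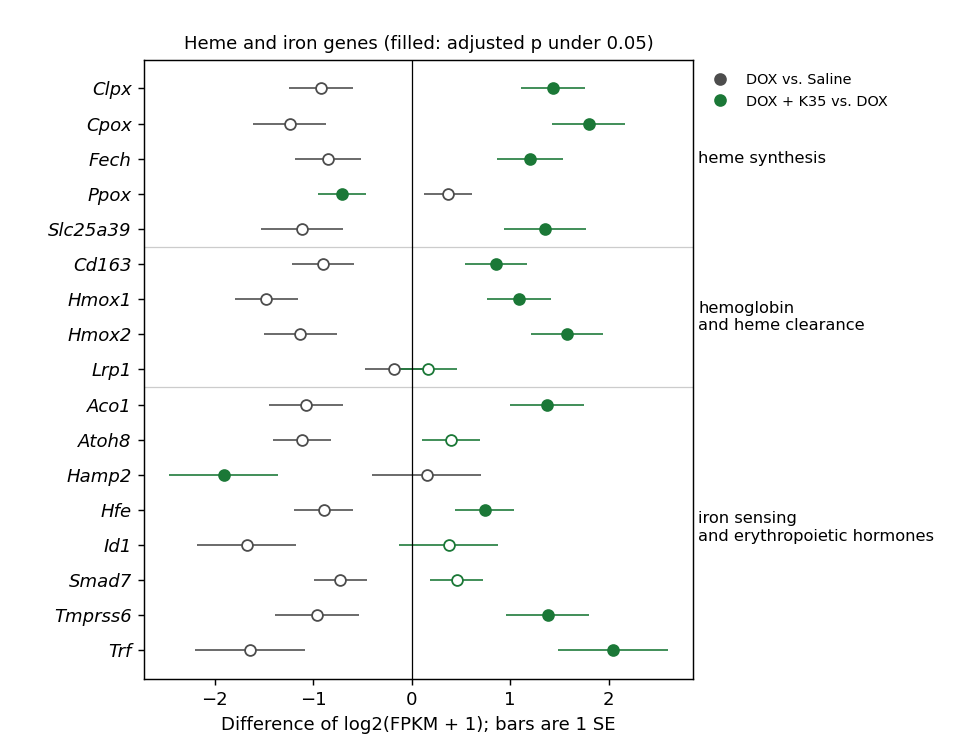
Differences of log2(FPKM + 1), first minus second group, for the 17 tested genes of heme synthesis, hemoglobin and heme clearance and iron sensing, in DOX vs. Saline (grey) and, in green, DOX + K35 vs. DOX, which share the DOX libraries. Bars are 1 SE from limma and filled circles have an adjusted p under 0.05. In DOX + K35 vs. DOX 11 genes passed to the right of 0, and Ppox (−0.71) and Hamp2 (−1.91) to the left.

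Markers of other cells were read beside the globin result. Of 14 lymphocyte markers 1 was tested, Cd79b, a part of the B cell receptor. It fell by 0.81 in DOX + K35 vs. DOX (adjusted p = 0.0260; limma, Benjamini-Hochberg), from 1.58, 2.81 and 2.64 FPKM to 1.28, 1.33 and 0.25, the last in C4. Without C4 its difference was −0.52 and did not pass (adjusted p = 0.113; limma, Benjamini-Hochberg). None of 12 neutrophil markers was analysed here, and of 10 platelet markers 2 were tested and 0 passed in any of the comparisons with DOX. Without C4, Itga2b, a platelet integrin, fell by 0.48 in DOX + K35 vs. DOX (adjusted p = 0.0238; limma, Benjamini-Hochberg). The part of blood cells other than red cells in the globin result was not tested.

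Of 12 Kupffer cell markers 7 were tested. Their summed FPKM ran from 78.9 to 212.6 for Saline, 19.6 to 55.7 for DOX, 54.7 to 89.98 for DOX + K35 and 57.7 to 104.6 for DOX + K27. Lower values in DOX, where globin was highest, were thus seen in every library relative to Saline. In DOX + K35 vs. DOX 4 of 7 rose (Vsig4, Marco, Cd5l and Adgre1) and 0 fell, against 46.0% of all genes that were higher, and in DOX vs. Saline 0 passed. Cd5l passed under 1 of 5 scalings and the other three under 2. Without C4 Marco no longer passed (adjusted p = 0.118) and Folr2 did (adjusted p = 0.0229; limma, Benjamini-Hochberg). Of 13 hepatocyte markers 6 were tested. Their sums were 18551 to 18800 FPKM for Saline and 11727 to 20726 for DOX. They were 15189 to 20169 for DOX + K35 and 20347 to 21663 for DOX + K27, so the liver label held in every library. In DOX + K35 vs. DOX 4 of the 6 rose (Trf, Cps1, Tat and Fga) and 0 fell, against 46.0% of all genes that were higher. The median of the 6 was 1.36, against 0.46 for all genes tested. Tat passed under 1 of 5 scalings and Trf, Cps1 and Fga under 5. Trf is also among the iron genes. Of 12 proliferation genes 1 was tested, Rrm2, a subunit of ribonucleotide reductase, which read 10.1 FPKM in C4 and 0.69 to 2.37 in the other libraries. Its rise in DOX + K35 vs. DOX (1.14, adjusted p = 0.0213) did not pass without C4 (adjusted p = 0.0536; limma, Benjamini-Hochberg). None of these lists has a value at 0, and their part in the globin result was not tested.

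The genes most like globin were found by the Pearson correlation of log2(FPKM + 1) with the mean profile of the 4 globin genes over the 12 libraries. These are descriptions across libraries that share library C4, scaling and group differences. The 10 highest of 3125 genes were Kyat1 (0.926), Mup14 (0.918), Mup2 (0.884), Mup13 (0.863), Slc35e2 (0.860), Abcg5 (0.855), Mup19 (0.853), Cd79b (0.840), Serf1 (0.828) and Tmsb10 (0.795). Kyat1, a kynurenine aminotransferase, read 27.3 FPKM in C4 and 47.3 to 70.3 elsewhere. The 4 Mup genes, near-identical copies whose reads can be shared, read 0.70 to 1.10 in C4 and 79.4 to 531.5 elsewhere. Without C4 the correlations of these 10 genes with globin were 0.320 to 0.759, and 0 of the 10 remained among the 10 highest, which were then led by Nr6a1 (0.896), Krba1 (0.870) and Trim7 (0.864). The likeness thus rested on library C4.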

How the data were processed

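Poly-T-selected liver mRNA of 12 mice was sequenced (Illumina NovaSeq). In 1 table, the authors deposited expression values scaled by length for 3799 genes, 280 of them newly assembled loci. As its header names no unit, the deposited values were taken to be FPKM. TPM would differ by 1 factor per library. The submitters' processing notes name HISAT2, DESeq2, edgeR and GRCm38, with no versions. How reads shared by gene copies were assigned is not given in the sources used here. No counts were given, so depth is unknown and edgeR and DESeq2 were not run here.

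The fit used log2(FPKM + 1) of the 3317 genes that averaged at least 1 FPKM, and was made with limma (lmFit, then eBayes with trend) over 12 libraries, with Benjamini-Hochberg adjustment within each of 6 comparisons and a threshold of 0.05. Such fold changes understate the change of genes with low FPKM. Sums, shares and ratios were compared with exact permutation tests. The fit was checked on simulated data with independent noise in each gene and no outlying library. That check does not cover the effect of libraries such as B4 and C4. The limma p-values set a difference between groups against the spread between libraries, which was estimated over the 4 groups together. The members, the gene lists and the tests were chosen with earlier results of these data known. Named genes were the 4 members, list genes in the table and the 10 genes most like the members; Nr6a1, Krba1, Trim7 and the overlapped B4galt3 were named after their values or positions were seen. The result for 1 list gene is not reported here, and list counts leave it out.

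Same-numbered livers came from different mice. Across genes, their departures from the group mean correlated at 0.258, 0.176 and 0.474 between Saline and DOX + K27. As each was over 0.1, the numbers were taken as pairs, although unlike-numbered livers 1 and 2 correlated more highly (0.380 and 0.302) than same-numbered ones. The correlations thus did not show that livers 1 and 2 were paired by number. The main fit and the other exact tests do not use the pairs. Promoter sequences and starts were taken from RefSeq (GRCm38.p6), positions and transcripts from GENCODE M21. Software was limma 3.58.1 in R 4.3.3, and pandas 2.3.3, numpy 2.4.6 and matplotlib 3.10.9 in Python 3.11.15. Alternatives were a pseudocount of 0.1, no filter, 4 other scalings, a fit of 2 groups, a replicate block, eBayes without trend, and each library left out in turn. The fit without libraries B4 and C4, the fit of the 9 numbered libraries without a block, the likeness without C4 and the exact test within pairs were chosen after seeing the data.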

Additional observations from a re-analysis of the deposited data

How the results depend on the processing

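The number of globin genes that passed in DOX + K35 vs. DOX ran from 2 to 4 of 4 when each library was left out, was 4 under every other setting that kept all libraries, and was 0 without libraries B4 and C4 together. The share of all genes called lower ran from 4.79% to 16.8% when each library was left out. It ran from 7.45% to 43% under the settings that kept all libraries and was 22.3% without B4 and C4. In the other 5 comparisons the number of globin genes that passed was 0 under every alternative run. In DOX + K35 vs. Saline the sign turned for all 4 genes when C4 was absent: without C4 alone, without B4 and C4, and with only the 9 numbered libraries, the log2 differences were 0.0226 (Hba-a1), 0.36 (Hba-a2), 0.11 (Hbb-bs) and 0.0644 (Hbb-bt). With each library left out they ran from −1.43, −1.54, −1.43 and −1.55 up to these values. With the replicate block over the numbered libraries they were 0.21, 0.65, 0.30 and 0.32. The block changed no call of a globin gene. In DOX + K27 vs. Saline it left the differences as they were with adjusted p-values of 0.197 to 0.270 (limma, Benjamini-Hochberg), and comparisons with DOX, which has 1 numbered library, could not be blocked.

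Median-ratio scaling moved the ratio of globin sums to 3.20 in DOX vs. Saline and 0.497 in DOX + K27 vs. DOX. Leaving the mitochondrially encoded genes out of the share moved its ratio to 2.65 and 0.642 in the same comparisons. Leaving out each library, the ratio of sums ran from 1.94 to 2.37 in DOX vs. Saline and from 0.226 to 0.505 in DOX + K35 vs. DOX. The number of heme and iron genes that passed in DOX vs. Saline was 5 after median-ratio scaling and after quantile normalization, 3 with equal sums without the 20 highest genes (against 30.1%, 23.1% and 33% of all genes under these scalings) and 1 without B4 and C4, and ran from 0 to 14 when each library was left out. In DOX + K35 vs. DOX it was 8 with equal sums without the 20 highest genes and 10 to 14 when each library was left out. The cause of these changes was not tested. Depth is unknown, and 3 libraries a group limit what could be detected.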
